A study of Mus musculus with 14 samples.

Results

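The genes described here encode enzymes that place ubiquitin on the histones H2A and H2B, together with 1 enzyme that removes it from H2A. They were chosen by name, as a list of 10 members: the H2B ligase subunits Rnf20 and Rnf40 and their partner Wac, the E2 enzymes Ube2a and Ube2b, the catalytic PRC1 (Polycomb repressive complex) subunits Ring1 and Rnf2, the PRC1 partners Bmi1 and Pcgf3, and the H2A deubiquitinase Bap1. All 10 had a row among the 16124 genes of the expression table, and none was picked by its measured values. Bap1 is an eraser, the other 9 members are writers or parts of writers.

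Ubiquitin reaches histone H2B through the RNF20 and RNF40 heterodimer, which works with the E2 enzymes UBE2A and UBE2B on transcribed chromatin, where WAC links it to RNA polymerase II. PRC1 places ubiquitin on H2A through RING1 or RNF2 paired with a PCGF protein, a mark tied to Polycomb repression, and BAP1 takes it off with its ASXL partners. USP22, the deubiquitinase of the SAGA coactivator complex, is known to remove ubiquitin from H2B and from H2A. The marks themselves were not measured in these data.

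RNA-seq was done on mammary epithelial cells (MECs) from 7 WT and 7 Usp22 OE/OE female mice, 3.5 months old, with 1 library per mouse. The mice formed 7 littermate pairs, numbered 1, 3, 4, 5, 6, 7 and 8. The paper describes over-branching in nulliparous females and does not give the parity of the RNA-seq mice. OE/OE mice were homozygous for a tagged mouse Usp22 cDNA at the ROSA26 locus under the CAGGS promoter, after a LoxP-flanked stop had been excised by Zp3-Cre in the germ line, so the active transgene was carried by every tissue and not by MECs alone. WT littermates were the controls, and whether they carried Zp3-Cre is not given in the sources used here. For each mouse the number 2, 3 and 4 glands were dissected, digested to organoids and dissociated. The unit throughout is the normalized count, the fragments counted on a gene divided by the DESeq size factor of the library.

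The E2 enzymes are shown first as sequence, because they are near-duplicates and reads could have been shared between them. Each is encoded by 459 coding bases (GENCODE M21, GRCm38), 356 of them identical (77.6%), and 85 of the 103 differing bases fall at the last position of a codon. The first 240 bases are printed from the start codon, with the 59 bases that differ between the pair in capitals.
Ube2a: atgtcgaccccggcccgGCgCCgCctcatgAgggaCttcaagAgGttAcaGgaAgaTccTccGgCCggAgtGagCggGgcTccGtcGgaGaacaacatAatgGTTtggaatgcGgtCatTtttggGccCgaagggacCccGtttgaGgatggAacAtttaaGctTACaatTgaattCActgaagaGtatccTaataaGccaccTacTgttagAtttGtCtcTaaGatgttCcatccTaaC
Ube2b: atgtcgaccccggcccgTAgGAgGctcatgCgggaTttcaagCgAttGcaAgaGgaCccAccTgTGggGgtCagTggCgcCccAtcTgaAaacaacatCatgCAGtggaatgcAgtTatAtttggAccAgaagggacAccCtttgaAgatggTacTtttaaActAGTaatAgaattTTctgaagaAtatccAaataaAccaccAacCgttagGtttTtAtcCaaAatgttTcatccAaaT
The longest run of coding bases without a difference is 17. No stretch of 75 bases, the read length, is shared between the transcripts of these genes or with any other annotated transcript, so each gene has its own count.

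Promoters are shown for Ring1 and Bmi1, a catalytic and a partner subunit of PRC1 whose litter means lay on opposite sides of their averages in most litters. This opposition was weak, with Pearson's r = -0.652 between the litter means (exact permutation p = 0.117). Without the 2 litters farthest from the median of Ring1, r was 0.216. The windows are the 250 bases before the RefSeq start (GRCm38.p6), on the gene's strand, with matches to the GC box (GGGCGG) and the E-box (CACGTG) on either strand in capitals.
Ring1, chr17:34024681-34024930, minus strand: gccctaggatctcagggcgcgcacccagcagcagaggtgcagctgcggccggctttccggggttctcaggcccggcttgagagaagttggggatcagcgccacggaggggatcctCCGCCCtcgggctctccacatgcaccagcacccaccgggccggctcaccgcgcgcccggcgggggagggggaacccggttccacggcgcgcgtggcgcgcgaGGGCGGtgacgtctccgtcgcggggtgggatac
Bmi1, chr2:18676768-18677017, plus strand: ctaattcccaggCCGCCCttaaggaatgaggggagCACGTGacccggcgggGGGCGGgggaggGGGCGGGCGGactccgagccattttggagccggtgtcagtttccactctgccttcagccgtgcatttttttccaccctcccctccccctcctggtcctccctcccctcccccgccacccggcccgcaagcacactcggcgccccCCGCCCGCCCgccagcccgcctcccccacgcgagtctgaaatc
The Ring1 window holds 2 GC boxes and the Bmi1 window holds 6, in part overlapping each other, with 1 E-box. The GC content was 73.6% for Ring1 and 70.4% for Bmi1, against a median of 52.4% over all 32851 windows. Of 11 windows found for 9 members (no entry for Wac), 7 held a GC box, which 32.7% of all windows hold. The E-box was found in 3 of the 11 and in 6.02% of all windows, the ETS motif CCGGAAG in 1 of 11 and 6.91%, and CCAAT in 2 of 11 and 33.8%. The windows are not 11 separate promoters. Both CCAAT windows belong to Rnf40, overlap and share a CCAAT site. The Rnf20 window (chr4:49638375-49638624) lies inside the gene as GENCODE places it, with a GC content of 40.0%. The NRF1 motif (0.782% of all windows) and the CRE motif TGACGTCA (1.55%) were found in none of the 11. These matches describe the letters only.

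Libraries held between 20125106 and 41835978 fragments on genes. Usp22 was at 3500 to 5380 normalized counts in WT mice and at 74948 to 144288 in OE/OE mice, a log2 fold change of 4.65 (SE 0.11), so the transgene was seen in every library labelled for it. The pan-epithelial markers (Epcam, Cdh1, Cldn7 and 5 keratins) were high in every mouse, from 4483 normalized counts for Cldn7 to 180962 for Krt8. Markers of other cells were present too, and none of the listed markers was at 0 in any library: the 8 fibroblast markers summed to 87590 to 177148 normalized counts in WT and 56747 to 130627 in OE/OE, and the 8 adipocyte markers to 13291 to 34038 and 9933 to 30536. The adipocyte sums were carried by Fabp4 and Lipe (medians 13832 and 4282), while Adipoq, Plin1 and the other 4 markers had medians of 12.8 to 139. The adipocyte score, the mean log2 value of its markers, was lower in OE/OE in 6 of 7 litters (exact sign-flip p = 0.0469, adjusted p = 0.328 over the 7 marker lists). Litter 4 had the widest difference in the proliferation score, 5.79: its OE/OE mouse scored 9.95, the highest of all 14, and its WT mouse 4.17, the lowest. The other OE/OE mice scored 5.04 to 8.67 and the other WT mice 5.58 to 9.15. In bulk cells, fewer cells of a type and less RNA per cell cannot be told apart.

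The first question was whether the members differed between WT and OE/OE littermates. No difference beyond the spread of the differences within litters was detected. With the litter as a block, limma's test called 0 of 10 members at an unadjusted p of at most 0.05. The background was 3.81% of all genes (614 of 16124), and every member had an adjusted p of 1.00. edgeR and DESeq2 on the recovered fragments called 0 of 10 as well. No member changed in the same direction in all 7 litters (background 1.51%), and the WT and OE/OE values overlapped for every member (values that do not overlap: 0.0434% of genes). The median log2 fold change over the members was 0.05, with 8 of 10 above 0, against -0.001 and 49.6% above 0 over all genes. Without litter 4 the median was 0.02 over the members and -0.004 over all genes. For 9 members the 95% interval of the fold change in the main fit stayed within 1.25-fold in either direction. The exception was Pcgf3. These intervals bound what could have been missed under that fit only. With the adipocyte score as a covariate, the log2 fold changes of Bap1 (-0.16) and Pcgf3 (-0.22) fell below their lower bounds in the main fit (-0.15 and -0.14).

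**Figure D1:**
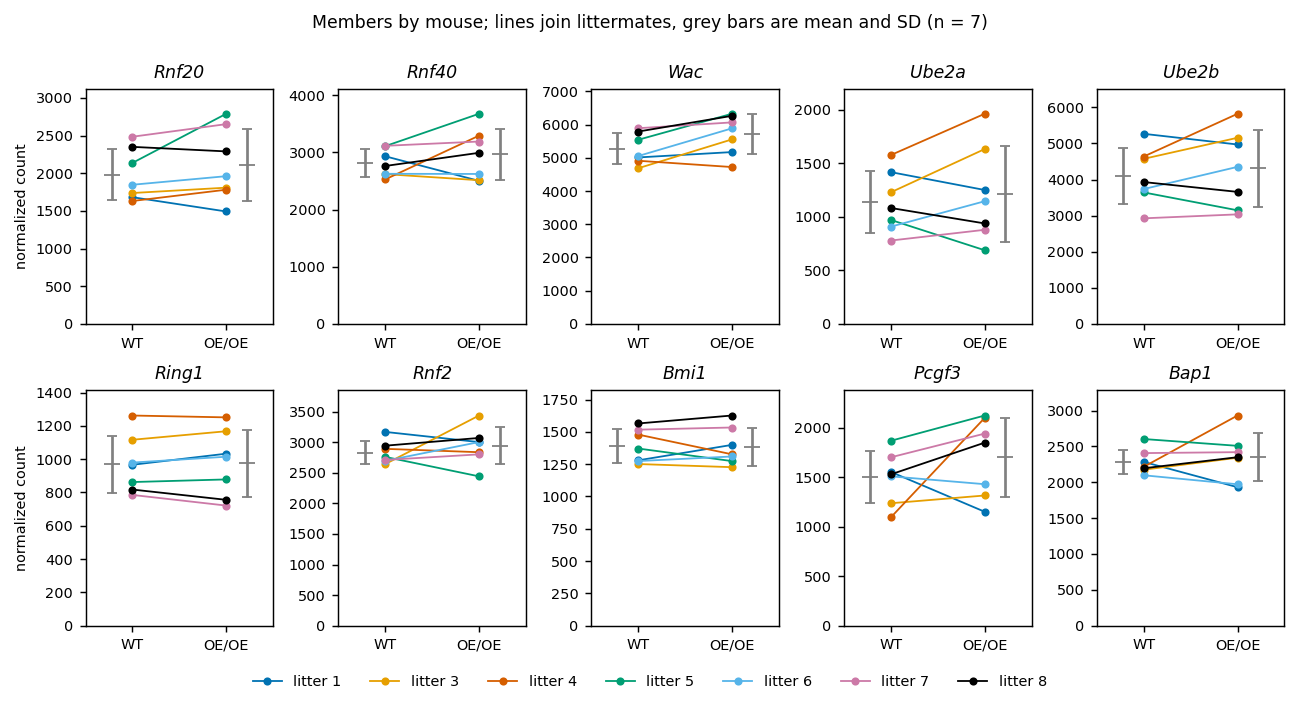
Normalized counts (y axis, linear from 0) of the 10 members in WT and OE/OE mice (x axis). Coloured points are mice, lines join littermates, and grey bars are the mean and SD of 7 mice. No panel has lines that all run in the same direction, and the WT and OE/OE values overlap in every panel.

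Rnf20 and Rnf40 are the paired RING subunits of the H2B ligase. Rnf20 (chr4:49632006-49656887, GRCm38) ran from 1631 normalized counts in the lowest WT mouse through a median of 1847 to 2484, and in OE/OE mice from 1492 through 1961 to 2788. The highest and the lowest value of all 14 were both in OE/OE mice, from litters 5 and 1. Its log2 fold change was 0.08 (SE 0.07, 95% interval -0.09 to 0.24), higher in 5 of 7 litters (exact sign-flip p = 0.281).

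Rnf40 (chr7:127588767-127604799) was at 2526, 2761 and 3113 (lowest, median and highest) in WT mice and at 2500.4, 2991 and 3673 in OE/OE mice. The OE/OE mice spread wider than the WT mice, at both ends. The log2 fold change was 0.07 (SE 0.08, 95% interval -0.11 to 0.25, exact sign-flip p = 0.406). Antisense genes cover part of its exons: 1700120K04Rik shares 546 bp (9.71%) and Gm44759 216 bp (3.84%). Neither has a row in the table. The strand setting of the counting and its handling of reads on overlapping genes are not given in the sources used here. How reads on the shared stretches entered the Rnf40 count is therefore not known. Rnf20 shares no such stretch.

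Wac, the adaptor of the H2B ligase (chr18:7868832-7929028), came nearest to a difference. WT mice were at 4685, 5054 and 5892 normalized counts and OE/OE mice at 4724, 5887 and 6327. The OE/OE littermate was higher in 6 of 7 litters, by 0.04 to 0.25 on the log2 scale, and lower by 0.06 in litter 4. Its log2 fold change was 0.11 (SE 0.06, 95% interval -0.03 to 0.26), with p = 0.106 in limma and p = 0.0625 in the exact sign-flip test, whose smallest possible value over 7 litters is 0.0156. Without litter 4 Wac had a log2 fold change of 0.14 and an unadjusted p of 0.0477 (adjusted p = 0.585 in limma). That made 1 of 10 members called, where 8.47% of all genes (1366) were called without that litter. An antisense gene, AC130718.2, shares 260 bp (4.39%) of the Wac exons.

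The E2 enzymes charge the ubiquitin that RNF20 and RNF40 transfer, and they also serve DNA damage tolerance and N-end rule ligases. Ube2a (chrX:36873900-36884222) was at 779, 1083 and 1577 normalized counts in WT mice and 688, 1146 and 1962 in OE/OE mice. Ube2b (chr11:51985497-52000762) was at 2925, 3930.1 and 5266 in WT mice and 3035, 4351 and 5821 in OE/OE mice. For each gene the OE/OE mice covered nearly the whole WT range or more. The log2 fold change was 0.05 for Ube2a (SE 0.12, 95% interval -0.22 to 0.32) and 0.05 for Ube2b (SE 0.08, -0.13 to 0.23), with exact sign-flip p of 0.703 and 0.50.

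The small averages of the E2 enzymes hid differences within litters that went together. In litters 3, 4, 6 and 7 both genes were higher in the OE/OE mouse, and in litters 1, 5 and 8 both were lower, with Ube2a between -0.50 (litter 5) and 0.41 (litter 3) on the log2 scale. Over the 7 litters, the OE/OE minus WT differences of Ube2a and Ube2b had Pearson's r = 0.935 (exact permutation p = 0.00456) and Spearman's rho = 0.857 (exact permutation p = 0.0238). Without the 2 litters farthest from the median of Ube2a, r was 0.853. This was 1 of 90 relations computed among members, 45 on differences and 45 on litter means, and 0 of the 90 had an adjusted p under 0.05 (0.0587 for this r), while 8 of the differences and 17 of the litter means had an unadjusted p under 0.05. The pan-epithelial score of the litters moved with them in part, higher in OE/OE by 0.34 and 0.25 in litters 3 and 4 and lower by 0.17 and 0.06 in litters 1 and 8. In litter 5, where Ube2a and Ube2b were lowest against WT, the score was higher in OE/OE by 0.03. Its part in the relation was not tested.

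Ring1 and Rnf2 are the alternative catalytic RING subunits of PRC1. Ring1 (chr17:34020792-34024680) was at 785, 966 and 1262 normalized counts in WT mice and at 721, 1014 and 1251 in OE/OE mice. Littermates were close to each other, with differences between -0.12 and 0.10 on the log2 scale. The log2 fold change was -0.0015 (SE 0.065, 95% interval -0.15 to 0.14), and its sign turned under 4 alternative scalings or covariates. Ring1 therefore differed by at most 10.5% in either direction at the bounds of its interval.

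Rnf2 (chr1:151458004-151500955) was at 2643, 2760.2 and 3169 in WT mice and at 2442, 3002 and 3437 in OE/OE mice. Its log2 fold change was 0.05 (SE 0.08, 95% interval -0.12 to 0.22, exact sign-flip p = 0.531). The widest difference was in litter 3, at 0.38, and the OE/OE mouse was higher in 4 of 7 litters. Trmt1l, on the opposite strand and also in the table, shares 158 bp (3.83%) of the Rnf2 exons.

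Bmi1 and Pcgf3 are PCGF subunits, which decide the kind of PRC1: BMI1 is a core subunit of the canonical form with CBX proteins, PCGF3 of a variant form. Bmi1 (chr2:18677018-18686629) was at 1251, 1371 and 1565 normalized counts in WT mice and at 1227, 1326 and 1626 in OE/OE mice. These ranges nearly coincide, and the log2 fold change was -0.0074 (SE 0.063, 95% interval -0.15 to 0.13, exact sign-flip p = 0.859). Of the 75-base stretches of its transcripts, 10.1% also occur in Gm5946. Whether reads that match both genes were counted or left out is not given in the sources used here.

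Pcgf3 (chr5:108461232-108506976) varied most between littermates. WT mice were at 1094, 1528 and 1867 and OE/OE mice at 1150.1, 1848 and 2122, with the lowest WT value in litter 4. The differences within litters ran from -0.43 in litter 1 to 0.94 in litter 4, and the OE/OE mouse was higher in 5 of 7. Its log2 fold change was 0.17 (SE 0.14, 95% interval -0.14 to 0.47, p = 0.252 in limma and 0.359 in the exact sign-flip test). In percent, this interval reached from -9.24 to 38.8. Without litter 4 it was 0.04.

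Bap1 (chr14:31251450-31259944), the catalytic subunit of the H2A deubiquitinase, was at 2098, 2216 and 2604 in WT mice and at 1932, 2350.4 and 2932 in OE/OE mice. The highest value was in the OE/OE mouse of litter 4. The log2 fold change was 0.03 (SE 0.08, 95% interval -0.15 to 0.22, exact sign-flip p = 0.672), and -0.03 without litter 4. Pcgf3, Bap1 and Rnf40 had their largest differences in that litter, at 0.94, 0.40 and 0.38, and their most negative ones in litter 1, at -0.43, -0.24 and -0.23. Differences of Pcgf3 and Bap1 had r = 0.952 (exact permutation p = 0.00437; rho = 0.786, exact permutation p = 0.0480, adjusted p of r 0.0587) and those of Rnf40 and Pcgf3 r = 0.910 (exact permutation p = 0.00794; rho = 0.857, exact permutation p = 0.0238, adjusted p of r 0.0714). Without the 2 litters farthest from the median these values of r were 0.541 and 0.542, so both relations rest on those litters. The marker scores of these litters also differed. In litter 4 the OE/OE minus WT difference was 5.79 in the proliferation score and 0.25 in the pan-epithelial score. It was -2.26 in the adipocyte, -0.94 in the fibroblast and -1.74 in the endothelial score. In litter 1 these differences were -1.30, -0.17, 0.53, 0.61 and 0.92, in the same order. The macrophage and lymphocyte scores were lower in OE/OE in both litters. The part of the scores in the differences of the members was not tested.

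**Figure D2:**
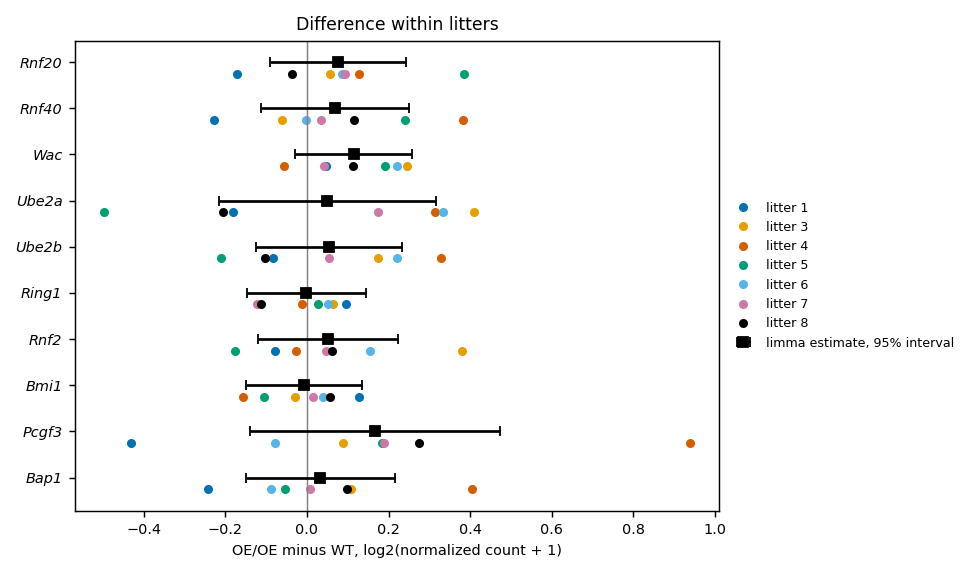
Difference between OE/OE and WT littermates on the log2(normalized count + 1) scale (x axis) for each member (y axis). Squares with bars are limma estimates with 95% intervals and coloured points are the 7 litters. Every interval includes 0, and the Pcgf3 point of litter 4 lies farthest from it, at 0.94.

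The spread of each member was split into litter, with 6 degrees of freedom, genotype, with 1, and the rest. With no effect of either, litter would take 46.2% and genotype 7.69% on average. The litter took between 45.8% (Rnf2) and 97.6% (Ring1) of the sum of squares of the 14 log2 values, and the genotype between 0.001% (Ring1) and 15.8% (Wac). The median litter share was 78.3% over the members and 73.9% over all genes. The test of the litter term was added after the values were seen: by limma's F test, 4 of 10 members had an adjusted p under 0.05, namely Ring1 (0.00985), Ube2b (0.0135), Rnf20 (0.0165) and Ube2a (0.0218), where 33.3% of all genes passed, so the members stood near the background. Litter means differed by up to 2.15-fold for Ube2a, 1.74-fold for Ube2b, 1.67-fold for Ring1 and 1.62-fold for Rnf20.

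The direction of the litter differences split the members by gene. Ube2a, Ube2b and Ring1 had litter means above their average in litters 1, 3 and 4 and below it in litters 5, 7 and 8. Ube2a, for example, was 0.64 above its mean in litter 4 and 0.46 below it in litter 5, on the log2 scale. Rnf20 and Wac ran the other way, below their means in litters 1, 3 and 4 and above them in litters 5, 7 and 8. Rnf20 was 0.34 below its mean in litter 1 and 0.35 above it in litter 7. Bmi1 was lowest in litter 3, by 0.16, and highest in litter 8, by 0.21. Rnf40 was near its mean in litters 4 and 8, by 0.0064 and 0.0015 above it. The litter term had an adjusted p of 0.184 for Wac and 0.276 for Rnf40 in limma, so these directions are a description.

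The pan-epithelial score of the libraries differed between the same litters. It was 15.21 to 15.81 in the 6 mice of litters 1, 3 and 4 and 14.90 to 15.11 in the 8 mice of the other litters. Its part in the litter differences was not tested, and whether litters were processed on separate days is not given in the sources used here.

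**Figure D3:**
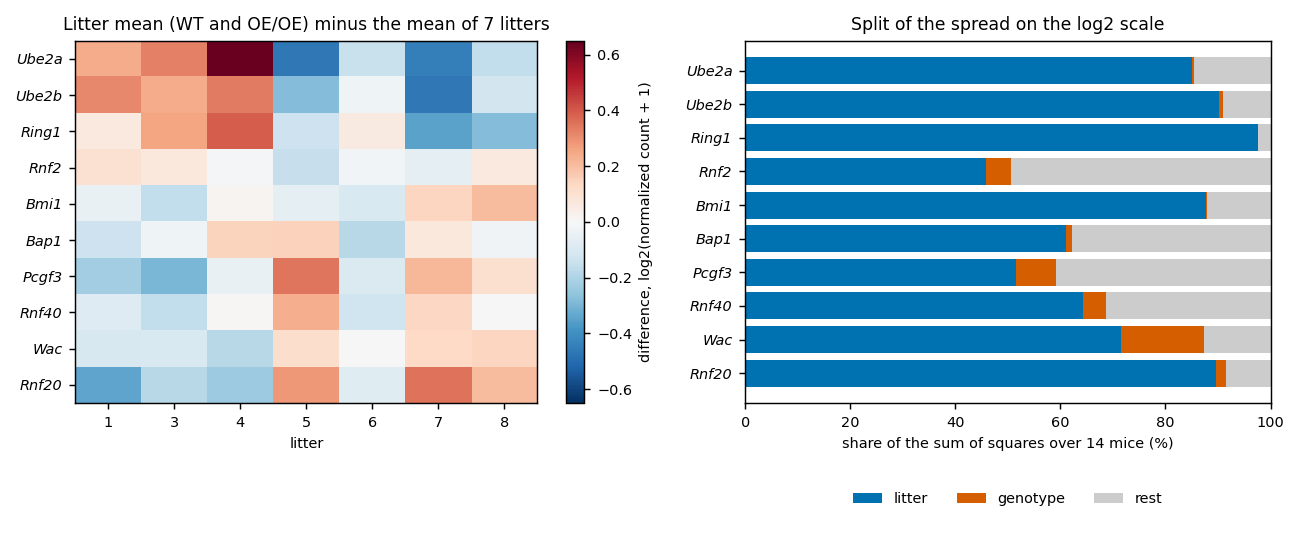
Left, mean of the WT and OE/OE littermate minus the mean over 7 litters (colour, log2 scale) for each member and litter. Right, share of the sum of squares over 14 mice (x axis, %) taken by litter, genotype and the rest. Ube2a, Ube2b and Ring1 are red in litters 1, 3 and 4 where Rnf20 and Wac are blue, and the litter share runs from 45.8% to 97.6%.

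Levels were set against each other per kb of exon, since longer transcripts collect more fragments. In WT mice Ube2b stood highest, at 1929 ± 366 normalized counts per kb (SD, n = 7), above 95.03% of all genes. Wac followed at 890 ± 79.1 and Rnf2 at 686 ± 44.7. Then came Ube2a (501 ± 126), Rnf40 (500.2 ± 42.9) and Bap1 (488 ± 36.6), which did not differ from each other beyond their spread. Ube2a also overlapped the range of Rnf2, although it was lower in every WT mouse. Bmi1 (350.02 ± 32.5), Ring1 (299 ± 52.8) and Rnf20 (272 ± 47.0) formed a lower series of overlapping neighbours, and Pcgf3 was lowest at 157 ± 27.5, above 54.2% of all genes. Between neighbours in this order, the 7 WT values were apart for Ube2b over Wac, Wac over Rnf2, Bap1 over Bmi1 and Rnf20 over Pcgf3.

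Ratios between partner subunits, taken on normalized counts per kb, differed between WT and OE/OE by less than their SD. Rnf40 stood at 1.87 ± 0.24 times Rnf20 in WT against 1.87 ± 0.30 in OE/OE mice (SD over 7 mice). Ube2b stood at 3.91 ± 0.38 and 3.94 ± 0.58 times Ube2a. Rnf2 stood at 2.35 ± 0.41 and 2.45 ± 0.50 times Ring1, so Rnf2 was the more abundant catalytic transcript in every mouse (lowest ratio 1.78). Bmi1 stood at 2.29 ± 0.49 and 2.05 ± 0.50 times Pcgf3. The mean OE/OE minus WT difference of each log2 ratio was smaller than its SD over litters, for example -0.01 ± 0.15 for Rnf40 to Rnf20 and -0.17 ± 0.50 for Bmi1 to Pcgf3.

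For each member the gene with the most similar profile was found among 13220 genes with a mean of at least 50 normalized counts, by Pearson's r over the 14 libraries, which share litters and cell makeup. Among H2B genes these were Nrd1 for Rnf20 (r = 0.974), Rap1gds1 for Rnf40 (0.966), Pnpla8 for Wac (0.966), Utp3 for Ube2a (0.981) and Yaf2, itself a PRC1 subunit, for Ube2b (0.971). Among H2A genes they were Rab24 for Ring1 (0.945), the casein gene Csn3 for Rnf2 (0.906), Alox12 for Bmi1 (0.849), Atxn7l1 for Pcgf3 (0.953) and Fam98a for Bap1 (0.978). Between members, levels over the 14 libraries had r = 0.938 for Ube2a with Ube2b, 0.926 for Rnf40 with Pcgf3, 0.832 for Rnf20 with Wac and -0.859 for Rnf20 with Ube2b. Rnf20 and Rnf40, which act as a heterodimer, had r = 0.716. These values describe the libraries and carry no test.

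The other genes of H2A and H2B ubiquitination were taken from a list of 70, of which 69 were in the table (not Usp44). At the unadjusted threshold 2 of 69 (2.90%) were called, both higher in OE/OE, where 1.95% of all genes were called higher and 1.85% lower. None had an adjusted p under 0.05 in limma, as against 0.0124% of all genes. The median log2 fold change of the list was 0.06, with 50 of 69 (72.5%) above 0, against -0.001 and 49.6% over all genes.

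The called genes were Cbx8 and Jarid2. Cbx8, a chromodomain subunit of canonical PRC1, was at 134, 152 and 182 normalized counts in WT mice and at 143, 192 and 243 in OE/OE mice. It was higher in 6 of 7 OE/OE littermates, with litter 3 the exception, and its log2 fold change was 0.30 (SE 0.12, 95% interval 0.04 to 0.57, unadjusted p = 0.0303 in limma, exact sign-flip p = 0.0312). Jarid2, a PRC2 cofactor that reads ubiquitin on H2A, was at 1325, 1664 and 1867 in WT mice and at 1611, 1805 and 2634 in OE/OE mice. It was higher in 6 of 7 littermates, with litter 1 the exception, and its log2 fold change was 0.21 (SE 0.09, unadjusted p = 0.0316 in limma, exact sign-flip p = 0.0469). Each had an adjusted p of 1.00, and each group overlapped the other. Neither call held in every fit: without litter 1, 5, 6 or 7 the unadjusted limma p of Cbx8 was 0.0602 to 0.0899 (log2 fold change 0.26 to 0.29), and without litter 3, 5, 7 or 8 that of Jarid2 was 0.0539 to 0.0791 (0.15 to 0.22). With the fibroblast score as a covariate, limma gave an unadjusted p of 0.0760 for Cbx8 and a log2 fold change of 0.10 (unadjusted p = 0.305) for Jarid2. Jarid2 was also not called with the adipocyte score (0.12, unadjusted p = 0.335 in limma), with no block (unadjusted p = 0.103) or without the trend (unadjusted p = 0.0510).

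Among the 10 CBX, PHC and SCM subunits of canonical PRC1, Cbx8 was the only one called, and the largest log2 fold change was that of Cbx2 at 0.34 (SE 0.29). Cbx2 was at 54 to 133 normalized counts in WT mice and at 70 to 261 in OE/OE mice, the last in litter 4, and without that litter its value was 0.02. None of the 11 subunits of variant PRC1 was called, the largest value being 0.22 for Bcorl1 (SE 0.10, exact sign-flip p = 0.0938), nor any of the 4 other PCGF genes, with Pcgf5 at 0.08.

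On the H2B side, 0 of 8 genes of the PAF1 complex and other H2B factors were called, with Ctr9, a PAF1 scaffold, at -0.14 (SE 0.09). Of the 4 other ligases that use UBE2A or UBE2B, none was called, and Rad18, which acts with these E2 enzymes in DNA damage tolerance, was at -0.09 (SE 0.21). With the adipocyte score as a covariate, Rad18 was at -0.67 (unadjusted p = 0.00696 in limma). In that fit 18.4% of all genes and 10.1% of the 69 list genes were called. None of the 69 had an adjusted p under 0.05. The 4 E2 enzymes of PRC1 and the damage ligases had values up to 0.08, for Ube2d1. Among 5 H2A ligases of the DNA damage response, Bard1, the partner of BRCA1, had a value of 0.17 with a large error (SE 0.46). Its difference in litter 4 was 3.37, and without that litter its value was -0.37.

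Of 10 BAP1 partners none was called. Ogt, the O-GlcNAc transferase bound to BAP1 complexes, had the largest value at -0.20 (SE 0.12), and its levels depended on litter 5, where WT and OE/OE littermates were at 3218 and 2093 normalized counts against at most 1162 and 1068 in the others. Of 10 other H2A or H2B deubiquitinases none was called, and Usp46, a paralog of the H2A and H2B deubiquitinase USP12, was at -0.29 (SE 0.15, exact sign-flip p = 0.141). Its most negative litter was litter 4, at -1.12.

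Leaving out litter 4 moved the count of the 69 from 2 to 9, 5 higher and 4 lower, while the count over all genes went from 614 to 1366 (8.47%; 4.49% higher). Cbx8 and Jarid2 were among the 9. Others, chosen for naming after their values were seen, were higher for Rsf1 (0.19) and Rybp (0.19) and lower for Brca1 (-0.47), Ogt (-0.26), L3mbtl2 (-0.22) and Wdr61 (-0.19). Rybp, a subunit of variant PRC1, had a difference of -0.33 in litter 4, opposite in sign to most other litters. Brca1, an H2A ligase of the damage response, was higher by 2.47 in the OE/OE mouse of litter 4 and lower in 5 of the other 6 litters.

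**Figure D4:**
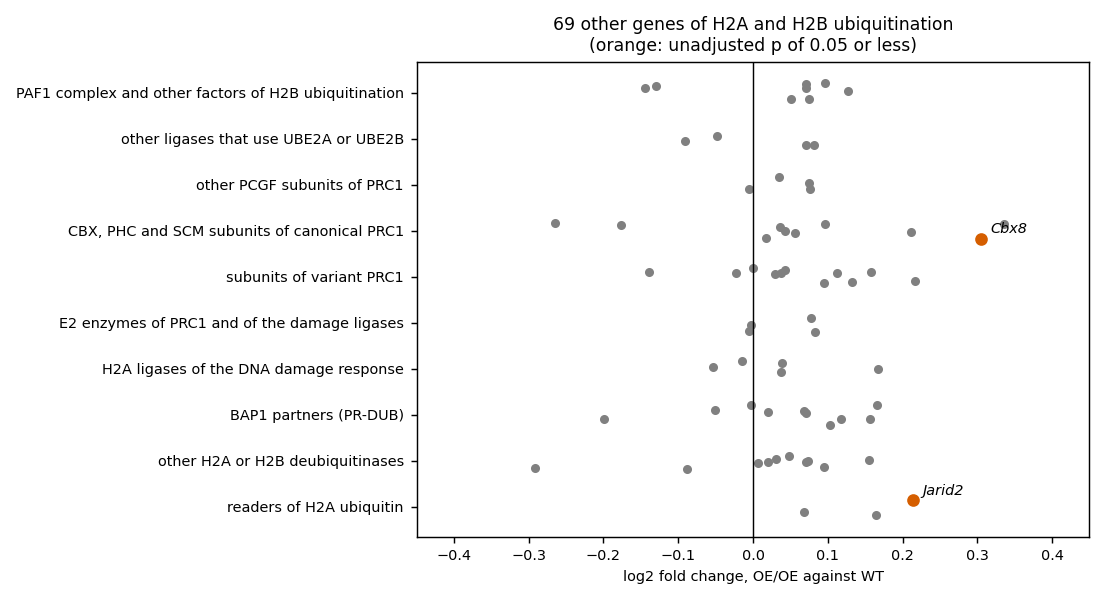
Log2 fold change of OE/OE against WT (x axis, limma with the litter as a block) of the 69 other genes, by role (y axis). Each point is a gene, and orange points have an unadjusted p of 0.05 or less. Cbx8 and Jarid2 are the orange points, at 0.30 and 0.21, and the value farthest to the right is that of Cbx2, at 0.34.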

How the data were processed

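RNA was taken from MECs of 7 WT and 7 OE/OE littermates, and polyA libraries were sequenced as read pairs. The authors mapped them to mm10 with TopHat2 2.0.10, counted fragments per GENCODE gene with HTSeq 0.6.0, filtered out genes that did not reach 10 fragments in 7 or more libraries, and divided by DESeq 1.18.0 size factors. What the authors deposited is a signal on a linear scale. In all libraries 100% of values were whole multiples of 1 fragment (tolerance 0.001). Recovered depth was 20125106 to 41835978 fragments (median 37838930), and 527 or more fragments lay behind each member's value in each library.

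Genes were compared with limma 3.58.1 in R 4.3.3 (lmFit, eBayes with trend) on log2(normalized count + 1) blocked by littermate pair, a call at an unadjusted p of 0.05 or less as in the study, Benjamini-Hochberg adjustment over all 16124 genes beside it, and exact two-sided sign flips of the 7 pairs (128 patterns). The fold changes of low genes are understated on this scale. Pairs come from the pair numbers in the labels, and the paper gives the pairs as littermates. Deviations from the group means correlated over genes by 0.203 to 0.837 within pairs (median -0.187 in the other 42 combinations). On recovered fragments, edgeR 4.0.16 called 597 genes and DESeq2 1.42.0 called 626. Positions and exon lengths come from GENCODE M21 (GRCm38), which all gene identifiers matched.

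The members and lists were chosen with earlier results of these data known. The genes named were the members, Usp22, list genes past the threshold, the largest log2 fold change of each role group, and each member's most similar gene. Alternatives were the pseudocount (0.1, 10), a minimum mean of 50, no block, no trend, edgeR, DESeq2, leaving out each pair, quantile normalization, median centring and covariates for the adipocyte, fibroblast and proliferation scores. The fit was tested on simulated data. The result of 1 gene of the list is not reported here, although the gene is included in the counts.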

Additional observations from a re-analysis of the deposited data

Results flagged for a closer look

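In each group of 7 mice, a value was singled out where its gap to the nearest mouse took more of the range than Dixon's 95% limit of 0.568. This held in 7 of 58 groups examined, and no member of the H2A and H2B ubiquitin list was among them. Chance gives about 2.9 where groups are not picked by their values. The named genes of the other list were picked by their fold change or unadjusted p in these data. The 2.9 therefore does not apply to them, and their contrast with the members was not tested.

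Of these values 3 came from the OE/OE mouse of litter 4: Rad18 at 471 normalized counts (next 292), Cbx2 at 261 (next 114) and Bard1 at 247 (next 59.5). That mouse had the highest proliferation and pan-epithelial scores of all mice. Its adipocyte, fibroblast, endothelial and macrophage scores were the lowest of all mice. Ogt was highest in both mice of litter 5, at 3218 in the WT mouse (next 1162) and at 2093 in the OE/OE mouse (next 1068). Pcgf5 was lowest in the WT mouse of litter 8, at 856 normalized counts (next 1056). The lymphocyte score was highest in the WT mouse of litter 1, at 7.94 (next 5.46).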

How the results depend on the processing

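Across the alternatives, 174 of 200 member values kept their direction and their side of the threshold, 25 changed sign and 1 (Wac without pair 4) passed it. The count of members called was 0 in every alternative except leaving out pair 4 (range 0 to 1), and the smallest exact sign-flip p of a member lay between 0.0312 (without pair 4) and 0.125 (without pair 3, 5, 6 or 8). The log2 fold change of Usp22 stayed between 4.52 and 4.77. Over all genes, the count called was 182 with no replicate block, 2968, 409 and 964 with the adipocyte, fibroblast or proliferation score as a covariate beside the block, and 381 to 1366 with a pair left out. Of the 69 other genes, 1 was called with no replicate block, 1 without the trend and 0 with the fibroblast score. With a pair left out it was 1 to 9. With the adipocyte score it was 7 (10.1%), where 18.4% of all genes were called. The block changed no call of a member.

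With the adipocyte score as a covariate, log2 fold changes took the opposite sign for Rnf40 (-0.10), Ube2a (-0.11), Ube2b (-0.074), Ring1 (0.028), Bmi1 (0.066), Pcgf3 (-0.22), Bap1 (-0.16), Cbx2 (-0.41), Ube2d1 (-0.34), Bard1 (-0.99) and Usp46 (0.061). With the fibroblast score this held for Rnf20 (-0.022), Rnf40 (-0.024), Ube2a (-0.053), Ube2b (-0.018), Bmi1 (0.053), Pcgf3 (-0.014), Bap1 (-0.050), Ube2d1 (-0.16) and Bard1 (-0.15). Ring1 also turned with edgeR and TMM (5.5e-05), median centring (0.0038) and quantile normalization (0.0087). With a pair left out, the ranges that crossed 0 were -0.0098 to 0.14 for Ube2a, -0.018 to 0.019 for Ring1, -0.0030 to 0.090 for Rnf2, -0.030 to 0.018 for Bmi1, -0.029 to 0.079 for Bap1, -0.29 to 0.038 for Rad18, -0.059 to 0.18 for Ube2d1 and -0.37 to 0.32 for Bard1. The cause of these changes was not tested. Differences within the interval given for a member could have been missed with these 7 pairs, and no detection limit was computed.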

Other observations

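The litter term was also read for the other genes of the list. An adjusted p under 0.05 in limma was reached by 7 of 10 BAP1 partners, 6 of 11 subunits of variant PRC1, 3 of 4 other ligases that use UBE2A or UBE2B, 3 of 8 H2B factors, 3 of 10 other deubiquitinases, 2 of 4 E2 enzymes, 1 of 3 readers, 1 of 5 damage ligases, 1 of 10 CBX, PHC and SCM subunits and 0 of 4 other PCGF subunits. Over all 69 genes it was 27 (39.1%), and over all genes 33.3%. The roles were not tested against each other. Ogt had a litter share of 91.5% of its sum of squares and Cbx8 a share of 40.6%, with 38.6% for the genotype, the highest genotype share among the named genes of the list.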
